A study of Mus musculus with 12 samples.

Results

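Thymic γδ T cells were compared with DN1–DN3 cells, which are T cell precursors, in mice labelled Gfi1 KO. The paper calls DN2–DN3 cells an unlikely source of the expanded γδT17 cells of these mice and a DN1 source tentative. Whether the γδ T cells compared arose from cells like those of the DN1–DN3 sort was not tested. The members are the cells of 4 libraries labelled KO, 2 of sorted thymic γδ T cells and 2 of sorted DN1–DN3 cells, that held at least 500 UMIs and at most 20% mitochondrial UMIs. They numbered 14422 γδ T cells and 14547 DN1–DN3 cells, or 28969 of the 96911 cells kept in the whole series. No gene expression value was used to choose them.

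The study counted transcripts of single cells with the 10x Genomics 3′ assay in splenic γδ T cells, thymic γδ T cells and thymic DN1–DN3 cells of adult mice with a germline Gfi1 deletion and of WT mice, both on the C57BL6/J background. Thymic cells were sorted after B cells, myeloid cells, NK cells and a part of the CD8+ cells had been depleted with antibodies. Cells of the KO and WT mice carried different hashtag antibodies and were run together, with separate droplet runs for the γδ T sort and the DN1–DN3 sort, so that the sort and the droplet run cannot be told apart. Each of the 6 groups, 3 compartments by 2 genotypes, has 2 libraries, and how many animals each held, or their exact age, is not given in the sources used here.

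T cells arise in the thymus from precursors that lack both CD4 and CD8. The earliest, DN1, still carry multipotent progenitor genes. Notch signals then drive commitment in DN2, and in DN3 the recombinase rearranges the antigen receptor genes, after which cells take the αβ path through the pre-T cell receptor or the γδ path through a γδ receptor. Some γδ T cells are programmed in the thymus to make interleukin 17 (γδT17 cells), among them cells that use the Vγ6 chain, which arise in the fetus. GFI1 is a zinc finger repressor that acts in blood stem cells and in lymphocyte precursors.

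Levels are given as CPM, the UMIs of a gene scaled to a common library total, and differences as the log2 of γδ T over DN1–DN3 from edgeR, so that a positive value means a higher level in γδ T cells. Where 2 pairs of values are joined by "against", the γδ T libraries come first and each pair is in the order replicate 1, replicate 2. All values are from the libraries labelled KO unless WT is named.

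The 4 libraries held between 42352748 and 56268385 UMIs, with a median of 5590.5 to 5792 UMIs per cell, and any pair of them shared between 7 and 19 cell barcodes. Gfi1 RNA itself was at 28.9 and 19.2 CPM in the γδ T libraries and 70.6 and 56.6 CPM in the DN1–DN3 libraries (log2 −1.26 ± 0.20 SE, adjusted p = 0.000443). The libraries with the KO label held no less of it than those with the WT label, which were at 16.5 and 17.6 CPM against 44.7 and 40.6 CPM, and the genotype difference of its γδ T to DN1–DN3 contrast did not pass the test, at 0.04 (SE 0.27, adjusted p = 0.934). Transcripts were tagged near their 3′ end and the deleted stretch of the gene is not given in the sources used here, so these counts do not check the genotype labels, and KO and WT below mean the labels. All 4 libraries held both the X-inactivation transcript Xist, at 739 and 852 CPM against 1600.2 and 1354 CPM, and the Y-linked transcript Ddx3y, at 35.6 and 24.3 CPM against 11.6 and 14.2 CPM, so each held cells of both sexes. The part of sex in the differences below was not tested.

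The 2 KO DN1–DN3 libraries differed from each other in some transcripts of innate-like T cells. Maf was at 253 and 121 CPM, Zbtb16 at 192 and 65.8 CPM and Il23r at 138 and 31.8 CPM, each higher in replicate 1, while Scart1, at 367 and 375 CPM, and Sox13, at 19.7 and 26.9 CPM, were not. These 5 genes were chosen after their values were seen. Shares of single cells with Maf and Zbtb16 UMIs are given at the end. In a summed library, fewer cells of a type and less RNA per cell cannot be told apart.

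The sorts differed across a large part of the transcriptome. Of 14911 genes tested, 8541 (57.3%) differed at an adjusted p below 0.05, 4515 (30.3%) higher and 4026 (27.0%) lower in γδ T cells, and the median log2 difference of all genes tested was 0.02. Past a fold of 2, 1927 genes (12.9%) were higher and 2064 (13.8%) lower. Any count below of genes higher or lower is to be read against these shares. The libraries of the 2 sorts did not overlap for 11397 of the 14911 genes, so a lack of overlap given below was common to most genes. The groups had 2 libraries each and the test shared one estimate of spread over all 12 libraries of the series, and where nothing ties a library to its own animals the p-values cover only the spread between libraries.

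**Figure D1:**
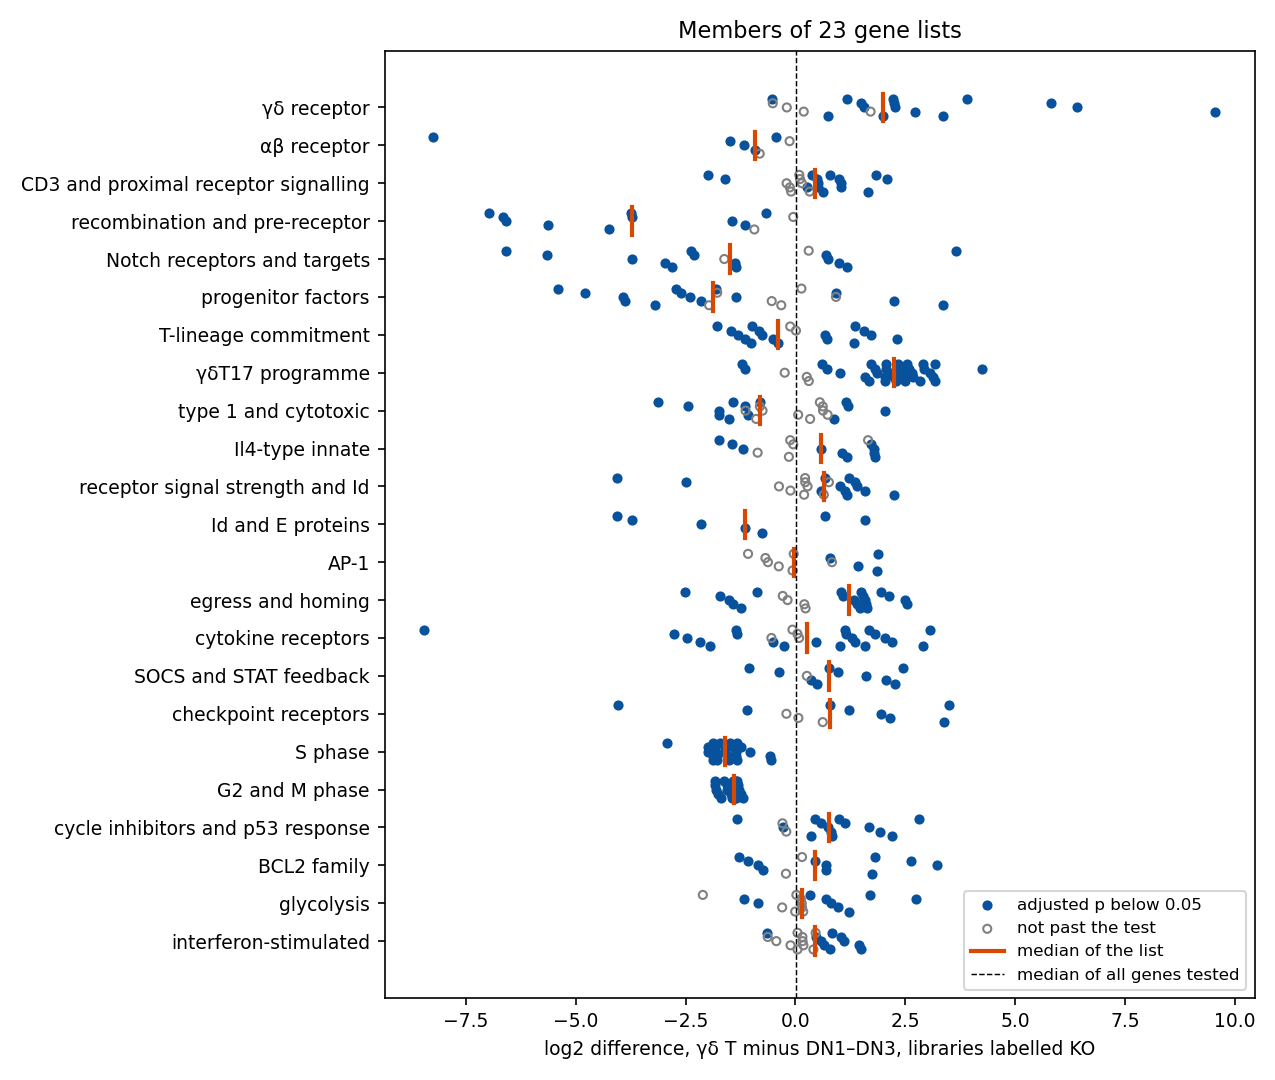
Log2 difference of thymic γδ T over DN1–DN3 libraries labelled KO (horizontal axis) for each tested gene of 23 gene lists (one line per list). Each point is a gene, filled where its adjusted p was below 0.05, and the bar marks the median of the list. The recombination genes sit lowest, with a median of −3.73, the S phase and G2/M phase genes lie entirely below 0, and the γδT17 and γδ receptor genes lie mostly above it.

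The γδ receptor was itself a target of the sort, so its genes are given first, as a check of the labels. Of 19 tested γ and δ chain genes, 14 were higher and 1 lower, with a median log2 difference of 2.00. Trdc, the constant region of the δ chain, was at 1919 and 2008 CPM in the γδ T libraries and 126 and 163 CPM in the DN1–DN3 libraries (log2 3.90 ± 0.17 SE, adjusted p = 5.20e-07). Trdc UMIs were found in 92.8% ± 1.30 of the γδ T cells and 18.1% ± 4.43 of the DN1–DN3 cells (SD, n = 2) once each cell was thinned to 2000 UMIs. Nearly every cell of the γδ T sort thus carried its defining transcript, and the DN1–DN3 sort was not free of it.

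Within the γδ receptor the variable segments were unequal. Trdv4, the δ segment paired with Vγ6, was at 413 and 456 CPM against 0.793 and 0.498 CPM (log2 9.56 ± 0.19 SE, adjusted p = 2.42e-09), and Trgv6, the Vγ6 segment, was at 151 and 165 CPM against 2.29 and 1.81 CPM (log2 6.42 ± 0.15 SE, adjusted p = 5.72e-09). Both were near absent from the precursors. Trgv1 was at 60.8 and 27.6 CPM against 12.7 and 8.03 CPM (log2 2.23 ± 0.30 SE, adjusted p = 0.000187) and Trgc1, the constant region joined to Vγ6, was at 988 and 1054 CPM against 292 and 273 CPM (log2 1.999 ± 0.10 SE, adjusted p = 8.64e-07). Trgv4 went the other way, at 22.9 and 15.03 CPM against 34.4 and 26.4 CPM (log2 −0.54 ± 0.16 SE, adjusted p = 0.0142) and was not called without γδ T replicate 2 (−0.30, adjusted p = 0.106) or with the 4 KO libraries alone (−0.58), while without γδ T replicate 1 it was −0.83 (adjusted p = 0.00137). The γ chain genes are similar in sequence and reads may be split among them, so single segments are uncertain to that extent.

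The αβ receptor genes were lower in γδ T cells, with 5 of 7 tested lower, none higher and a median log2 difference of −0.93. Trac, the constant region of the α chain, was at 51.2 and 51.5 CPM against 154 and 65.6 CPM (log2 −0.93 ± 0.31 SE, adjusted p = 0.0253). DN1–DN3 replicate 1 held far more Trac than replicate 2, and the call was lost without it (−0.33), without γδ T replicate 1 (−0.89) and without γδ T replicate 2 (−0.97), while without DN1–DN3 replicate 2 the difference was −1.42. It was also lost with the 4 KO libraries alone (−0.97), the replicate block within genotype (−0.85) and no filter on low counts (−0.94), and was −1.48 without cells with Mki67 or Top2a UMIs. Here and below, the block within genotype was fitted to the 8 thymic libraries alone. Of the genes for CD3 and the first steps of receptor signalling, 13 of 22 were higher and 2 lower (median 0.43). Cd247, the ζ chain of the receptor complex, was higher by 1.65 on the log2 scale, Zap70, the kinase that docks on it, by 2.07, and Rasgrp1, which links the receptor to Ras, by 1.83. Lck, the kinase that starts the signal, was lower, at 133 and 77.2 CPM against 456 and 462 CPM (log2 −1.995 ± 0.20 SE, adjusted p = 3.15e-05). Its levels in the γδ T libraries lay far below both DN1–DN3 libraries.

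Genes of recombination and the pre-receptor were lower in γδ T cells in 10 of 12 tested and higher in none, and the median of −3.73 was the lowest of the 23 lists plotted by list. Their summed level was 717 and 578 CPM against 3765 and 4109.6 CPM. Rag1, a subunit of the recombinase, was at 2.34 and 2.56 CPM in the γδ T libraries and 224 and 318 CPM in the DN1–DN3 libraries (log2 −6.65 ± 0.36 SE, adjusted p = 7.47e-06). Its partner Rag2 differed by −5.63 (SE 0.32, adjusted p = 4.25e-06). Ptcra, the invariant chain of the pre-T cell receptor, was at 1.46 and 1.06 CPM against 95.4 and 168 CPM (log2 −6.58 ± 0.47 SE, adjusted p = 6.51e-06). Dntt, which adds bases at the joints of rearranged segments, was at 30.8 and 19.5 CPM against 492 and 553 CPM (log2 −4.25 ± 0.26 SE, adjusted p = 2.99e-06) and so was still measured in the γδ T libraries. After thinning, Rag1 UMIs were found in 0.213% ± 0.0548 of the γδ T cells and 31.1% ± 7.97 of the DN1–DN3 cells, and Ptcra UMIs in 0.162% ± 0.0278 and 20.5% ± 8.82 (SD, n = 2).

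The Notch genes split. Of 16 tested, 9 were lower and 5 higher (median −1.49). Notch3, a receptor of DN3 cells, was at 3.57 and 2.34 CPM against 148 and 180.2 CPM (log2 −5.67 ± 0.23 SE, adjusted p = 5.20e-07), and Notch1, the receptor that commits thymocytes to the T lineage, was at 58.4 and 60.99 CPM against 315 and 367 CPM (log2 −2.38 ± 0.14 SE, adjusted p = 1.69e-06). The target Hes1, a transcriptional repressor, differed by −3.71 (SE 0.24, adjusted p = 4.51e-06) and Myc, a growth regulator, by −2.96 (SE 0.29, adjusted p = 3.25e-05). Il2ra, the interleukin 2 receptor α chain that marks DN2 and DN3 cells and was one of the sorting antibodies' targets, was lower in γδ T cells but still abundant, at 111 and 144 CPM against 328 and 392 CPM (log2 −1.36 ± 0.24 SE, adjusted p = 0.000865). Il2ra UMIs were found in 22.04% ± 3.83 of γδ T cells and 41.6% ± 4.48 of DN1–DN3 cells after thinning (SD, n = 2).

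Progenitor factors were mostly lower, 11 of 20 with 3 higher (median −1.88). Bcl11a, a zinc finger factor of lymphoid progenitors, differed by −5.40 (SE 0.98, adjusted p = 0.00115) and Erg, an ETS factor of stem cells and early thymocytes, by −4.79 (SE 0.22, adjusted p = 5.66e-07). Cdk6, a cyclin D kinase of dividing precursors, differed by −2.40 (SE 0.12, adjusted p = 8.64e-07). Mycn, the second MYC family gene, was one of the 3 higher genes, at 24.1 and 43.3 CPM against 8.57 and 7.41 CPM (log2 2.23 ± 0.31 SE, adjusted p = 0.000231), while Myc was lower. The γδ T sort thus showed opposite differences for the 2 MYC genes.

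Commitment factors moved in both directions. Of 19 tested, 7 were higher and 10 lower (median −0.40). Tcf7, the gene of TCF1, which is needed to enter the T lineage, was at 268 and 223 CPM against 511 and 584 CPM (log2 −1.02 ± 0.13 SE, adjusted p = 0.000148), and its relative Lef1 differed by −0.98 (SE 0.18, adjusted p = 0.000949). The higher genes included Ikzf3, an Ikaros family factor, with 2.31 (SE 0.30, adjusted p = 0.00016), Tox2 with 1.72 (SE 0.20, adjusted p = 8.88e-05), Tox with 1.55 (SE 0.15, adjusted p = 3.12e-05), and Runx3, a regulator of effector T cells, with 1.34 (SE 0.20, adjusted p = 0.00032). The list of E protein genes, whose products drive rearrangement and the DN to DP passage, and their Id inhibitors, which also held the Notch target Hes1, gave 2 higher and 5 lower of 7 (median −1.15). The inhibitors differed in both directions, Id2 with 1.57 (SE 0.32, adjusted p = 0.00213) and Id3 with 0.68 (SE 0.24, adjusted p = 0.0324), while Id1, a transcript of low level at 0.189 and 0.132 CPM against 2.16 and 3.77 CPM, was lower (log2 −4.07 ± 0.52 SE, adjusted p = 0.00012). The E protein genes Tcf3, Tcf4 and Tcf12 and the gene Hes1 were lower. The Id3 call was lost without DN1–DN3 replicate 1 (0.35), without γδ T replicate 1 (0.36) and without 3 of the 4 WT thymic libraries (0.63 to 0.68). It was also lost without cells with B cell transcripts (0.44) or with Mki67 or Top2a UMIs (0.82), with the 4 KO libraries alone (0.64), with the replicate block within genotype (0.65) and with no filter on low counts (0.66).

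**Figure D2:**
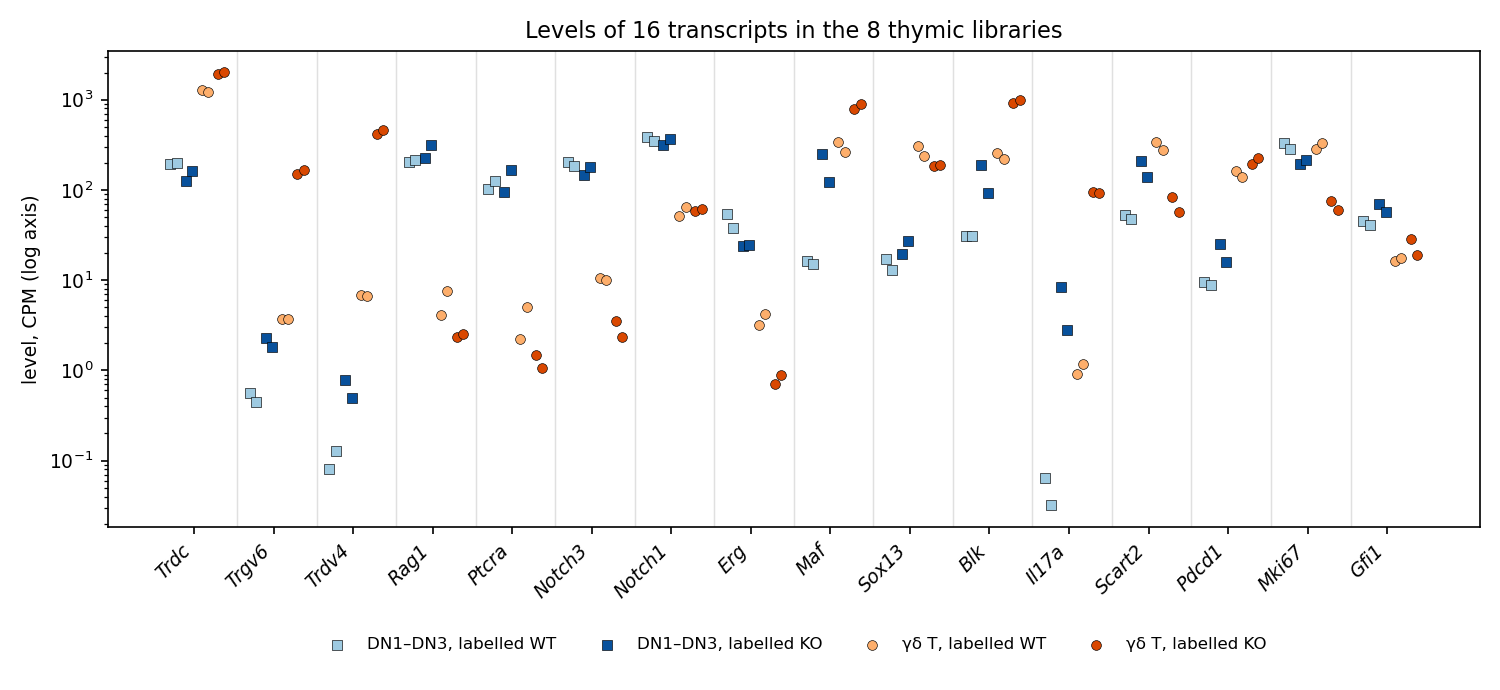
Levels of 16 transcripts in the 8 thymic libraries (CPM on a log axis, one point per library, grouped as γδ T or DN1–DN3 and labelled KO or WT). Trdv4, Trgv6, Maf and Il17a were highest in the KO γδ T libraries, Rag1, Ptcra and Notch3 were highest in the DN1–DN3 libraries of both genotypes, and the KO DN1–DN3 libraries lay above the WT DN1–DN3 libraries for Maf.

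The γδT17 genes were higher in γδ T cells almost throughout. Of 37 tested, 32 were higher and 2 lower, with a median log2 difference of 2.25. Maf, a factor required for γδT17 cells, was at 788 and 896 CPM in the γδ T libraries and 253 and 121 CPM in the DN1–DN3 libraries (log2 2.33 ± 0.27 SE, adjusted p = 8.43e-05). Rora, the gene of a nuclear receptor, differed by 2.48 (SE 0.41, adjusted p = 0.000623). Every γδ T library lay above every DN1–DN3 library for both genes, and DN1–DN3 replicate 1 was the higher of the 2 precursor libraries for both. Without immunoglobulin-rich cells Rora was at 145.7 and 42.5 CPM in the DN1–DN3 libraries. Over the alternative fits the difference ranged from 1.90 to 2.82 for Maf and from 1.83 to 3.48 for Rora. The summed level of the list was 16707 and 19662 CPM against 6795 and 3926 CPM.

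Sox13, an HMG-box factor of early γδ T cells, was at 182 and 189.9 CPM against 19.7 and 26.9 CPM (log2 3.13 ± 0.20 SE, adjusted p = 3.98e-06), and Blk, a SRC family kinase of γδT17 cells, at 914 and 1000.02 CPM against 190.1 and 91.6 CPM (log2 2.93 ± 0.26 SE, adjusted p = 2.34e-05). Il17a, the cytokine itself, was at 95.7 and 93.4 CPM against 8.51 and 2.83 CPM (log2 4.24 ± 0.41 SE, adjusted p = 3.19e-05). The receptors that drive its release were higher too, Il23r at 401 and 719 CPM against 138 and 31.8 CPM (log2 2.91 ± 0.53 SE, adjusted p = 0.00118) and Il1r1 with a log2 difference of 3.06 (SE 0.49, adjusted p = 0.000559). Zbtb16, the gene of the innate T cell factor PLZF, was at 408 and 349 CPM against 192 and 65.8 CPM (log2 1.72 ± 0.37 SE, adjusted p = 0.00308), a difference of 1.13 without DN1–DN3 replicate 2.

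The 2 scavenger receptor genes of this list differed in opposite directions. Scart1, known from Vγ6 cells, was at 2254 and 2543 CPM against 367 and 375 CPM (log2 2.84 ± 0.14 SE, adjusted p = 1.01e-06). Scart2, known from Vγ4 cells, was at 84.3 and 56.4 CPM against 208 and 138 CPM (log2 −1.15 ± 0.19 SE, adjusted p = 0.000685) and was, with Sox4, which differed by −1.21 (SE 0.22, adjusted p = 0.00117), one of the 2 lower members. The γδ T libraries lay wholly above the precursor libraries for Scart1 and wholly below for Scart2. Cells with Maf or Zbtb16 UMIs were also present in the DN1–DN3 sort, more so in replicate 1, and their part in the differences of this list was not tested.

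Among the type 1 and cytotoxic genes 4 of 23 were higher and 9 lower (median −0.81). Prf1, the gene of the pore former perforin, differed by 2.04 (SE 0.30, adjusted p = 0.000342) and Il2rb, the interleukin 2 and 15 receptor β chain, by 1.16 (SE 0.23, adjusted p = 0.00193), or 0.73 without DN1–DN3 replicate 2 and 0.60 without cells with Mki67 or Top2a UMIs. Ccl5, a chemokine of effector T cells, differed by −1.52 (SE 0.23, adjusted p = 0.000382) and Nkg7, a cytotoxic granule gene, by −1.14 (SE 0.28, adjusted p = 0.0059), the latter not called without DN1–DN3 replicate 1 (−0.89) or γδ T replicate 2 (−0.96) and at −1.83 without cells with Mki67 or Top2a UMIs. Tbx21, the gene of the type 1 factor T-bet, was at 6.59 and 3.28 CPM against 17.6 and 6.65 CPM and did not pass the test (log2 −1.14 ± 0.47 SE, adjusted p = 0.0618), and its value depended on the setting. It passed with the replicate block (−1.10, adjusted p = 0.0236), the block within genotype in the 8 thymic libraries alone (−1.11, adjusted p = 0.0044) and DESeq2 (−1.16, adjusted p = 0.0139). It also passed without cells with B cell transcripts (−1.26, adjusted p = 0.0476), with Mki67 or Top2a UMIs (−1.65, adjusted p = 0.0203) or of very high depth (−1.22, adjusted p = 0.0492). With single libraries left out it was at −1.68 without DN1–DN3 replicate 2 (adjusted p = 0.0336), −0.42 without DN1–DN3 replicate 1 (adjusted p = 0.548) and −0.75 without γδ T replicate 2 (adjusted p = 0.322). Of the genes of the innate type that makes interleukin 4, 7 of 15 were higher and 3 lower (median 0.58), and Il4 itself was at 38.9 and 13.7 CPM against 12.3 and 4.69 CPM (log2 1.78 ± 0.52 SE, adjusted p = 0.0146), a call that was lost without DN1–DN3 replicate 2 (1.24), γδ T replicate 1 (0.90) or cells with Mki67 or Top2a UMIs (1.37), with the 4 KO libraries alone (1.75) and with no filter on low counts (1.77).

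Of 20 genes that respond to receptor signals, 10 were higher in γδ T cells and 2 lower (median 0.66). Cd69, an early activation receptor that retains cells in tissue, was higher by 2.25 (SE 0.29, adjusted p = 0.000152), and Myb, a factor of proliferating precursors, differed by −2.49 (SE 0.18, adjusted p = 5.14e-06). Of 11 AP-1 genes, 4 were higher and none lower (median −0.04). Checkpoint receptors gave 6 higher and 2 lower of 11 (median 0.78). Pdcd1, the gene of PD-1, was at 194 and 226 CPM against 25.4 and 15.99 CPM (log2 3.50 ± 0.19 SE, adjusted p = 1.33e-06) and Havcr2, the gene of TIM-3, at 43.4 and 44.5 CPM against 6.92 and 2.68 CPM (log2 3.37 ± 0.31 SE, adjusted p = 2.38e-05). Ctla4, also an inhibitory receptor, was the reverse, at 2.55 and 1.81 CPM against 36.9 and 41.2 CPM (log2 −4.03 ± 0.20 SE, adjusted p = 9.09e-07).

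Cytokine receptor genes were split, with 13 of 26 higher and 9 lower (median 0.27). Il7r, the receptor for the survival cytokine of thymocytes, was higher by 1.02 (SE 0.24, adjusted p = 0.00534), or 0.59 without DN1–DN3 replicate 2 and 0.64 without cells with Mki67 or Top2a UMIs, and was not called with the 4 KO libraries alone (0.98). The suppressors of cytokine signalling and their STAT and PIM neighbours were mostly higher, 8 of 11 with 2 lower (median 0.77). Cish, which is induced by STAT5, was higher by 2.06 (SE 0.26, adjusted p = 0.000125), Pim2, a survival kinase gene, by 2.45 (SE 0.25, adjusted p = 4.40e-05), and Socs2 was at 45.1 and 48.5 CPM against 20.8 and 13.7 CPM (log2 1.60 ± 0.17 SE, adjusted p = 5.60e-05). All of these lay above both DN1–DN3 libraries in both γδ T libraries.

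Homing genes were higher in 14 of 24 and lower in 6 (median 1.21). Ccr9, the receptor that guides cells to the thymus and gut, was at 205 and 144 CPM against 38.5 and 27.6 CPM (log2 2.55 ± 0.18 SE, adjusted p = 4.61e-06). Cxcr6, a tissue homing receptor, differed by 2.48 (SE 0.38, adjusted p = 0.000416) and the adhesion receptor gene Cd44, another sorting target, by 2.12 (SE 0.36, adjusted p = 0.000783). Over the alternative fits Cxcr6 ranged from 1.86 to 3.41 and Cd44 from 1.57 to 2.87. S1pr1, the receptor that lets thymocytes leave, differed by 1.08 (SE 0.35, adjusted p = 0.0235), and Ccr7, which guides cells to lymph nodes, by 1.58 (SE 0.18, adjusted p = 6.59e-05). The S1pr1 call was lost without DN1–DN3 replicate 2 (0.55), γδ T replicate 1 (0.68), cells with B cell transcripts (0.38) or cells with Mki67 or Top2a UMIs (0.47), with the 4 KO or 8 thymic libraries alone (1.05 and 1.06) and with no filter on low counts (1.07), and the difference was 1.77 without DN1–DN3 replicate 1. Klf2, the factor that turns S1pr1 on, was at 187 and 129 CPM against 151 and 145 CPM and did not pass the test (log2 0.23 ± 0.18 SE, adjusted p = 0.294). The sign turned without γδ T replicate 1 (−0.02), so no direction is given for Klf2.

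The cell cycle genes listed were all lower in γδ T cells. Each of the 25 S phase genes (median −1.60) and the 25 G2/M phase genes (median −1.40) was called, where 27.0% of all genes were lower. Uhrf1, which copies DNA methylation in S phase, differed by −2.92 (SE 0.24, adjusted p = 1.37e-05) and Mki67, the proliferation marker Ki-67, was at 75.6 and 59.5 CPM against 192 and 217 CPM (log2 −1.46 ± 0.22 SE, adjusted p = 0.000361). Mki67 UMIs were found in 5.04% ± 0.389 of γδ T cells and 14.1% ± 1.58 of DN1–DN3 cells after thinning (SD, n = 2). Of 16 cycle inhibitors and p53 response genes, 12 were higher and 2 lower (median 0.77). Cdkn1a, the best known p53 target among them, was 1 of the 2 lower genes, at 3.35 and 3.35 CPM against 8.72 and 9.77 CPM (log2 −1.32 ± 0.28 SE, adjusted p = 0.00244).

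Of 13 BCL2 family genes 7 were higher and 4 lower (median 0.46). Bcl2a1a, a survival gene with near-identical copies among which reads may be split, was at 114 and 136 CPM against 23.6 and 6.66 CPM (log2 3.23 ± 0.46 SE, adjusted p = 0.000248), Bik, a death gene, was higher by 2.63 (SE 0.36, adjusted p = 0.000198) and Bcl2l11, the gene of the death factor BIM, differed by −1.08 (SE 0.10, adjusted p = 2.50e-05). Glycolysis genes gave 7 higher and 2 lower of 17 identifiers tested (median 0.15), for a list of 16 genes in which Aldoa has 2 identifiers. Interferon-stimulated genes gave 9 higher and 1 lower of 20 (median 0.43), and Gfi1 with its repressor partners 3 higher and 3 lower of 11 (median −0.15). The share called was no larger than the 57.3% of all genes in the type 1 and cytotoxic, AP-1, glycolysis, interferon-stimulated and repressor lists. The same held for the myeloid, dendritic cell, stromal and red cell markers given below. It was little larger for the genes that respond to receptor signals.

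The 10 largest differences in each direction were named among calls averaging 20 CPM or more over the 4 KO libraries, with no overlap between the sorts, and include members of the lists such as Trdv4 and Rag1. The higher ones included Fat3, an atypical cadherin gene, at 82.9 and 95.4 CPM against 0.3 and 0.178 CPM (log2 8.71 ± 0.26 SE, adjusted p = 5.61e-08). Rnf150, a RING finger gene, was at 48.7 and 100.2 CPM against 0.943 and 0.48 CPM (log2 6.90 ± 0.53 SE, adjusted p = 9.17e-06) and Dlgap1, which encodes a scaffold of synapses, at 62.6 and 46.3 CPM against 1.41 and 1.08 CPM (log2 5.59 ± 0.26 SE, adjusted p = 8.64e-07). These transcripts were close to 0 in both precursor libraries. Tdrd9 and Rnf17, genes of small RNA pathways in germ cells, differed by 7.45 (SE 0.48, adjusted p = 4.20e-06) and 6.27 (SE 0.50, adjusted p = 1.14e-05). The ephrin receptor gene Epha3 was at 111 and 24 CPM against 2.12 and 0.853 CPM (log2 5.66 ± 0.83 SE, adjusted p = 0.000342), with γδ T replicate 1 far above replicate 2.

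The 10 in the other direction mixed precursor and B lineage transcripts. Adamts17, a secreted metalloprotease gene, differed by −6.37 (SE 0.24, adjusted p = 3.70e-07), and the transcript 2700054A10Rik by −6.55 (SE 0.30, adjusted p = 8.64e-07). Ly6d, which marks lymphoid progenitors and B cells and was named as a list member, was at 12.6 and 15.3 CPM against 422 and 715 CPM (log2 −5.22 ± 0.42 SE, adjusted p = 1.26e-05). The immunoglobulin constant gene Ighg2b was at 0 and 0.022 CPM against 188 and 170.4 CPM, and Igha at 0.0472 and 0 CPM against 51.5 and 57.5 CPM. In the DN1–DN3 libraries 27 and 72 cells with at least 1% immunoglobulin UMIs held 95.5% and 95.9% of all immunoglobulin UMIs, while the γδ T libraries had 0 and 2 such cells. Without these cells Ighg2b was at 0 and 0.0221 CPM against 1.21 and 4.55 CPM, and Slpi, a protease inhibitor gene that differed by −6.75 (SE 1.17, adjusted p = 0.00128) with them, was no longer called (−1.60, adjusted p = 0.111). Igkc, the κ light chain gene, was at 1.61 and 127 CPM against 1606 and 3528 CPM and did not pass the test (adjusted p = 0.198). It passed without the immunoglobulin-rich cells (−4.90, adjusted p = 0.00538) and without cells with B cell transcripts (−4.35, adjusted p = 0.00646). It also passed with the 8 thymic libraries alone (−5.18, adjusted p = 0.0398) and with the block within genotype (−6.90, adjusted p = 0.0131). Without γδ T replicate 2 the difference was −10.56.

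Markers of other cell types were looked at as whole lists. B cell markers were lower in 11 of 15 and higher in none (median −3.49), with a summed level of 103 to 215 CPM in the γδ T libraries and 2234 to 4642 CPM in the DN1–DN3 libraries. Igkc made up most of the latter sum, and was at 25.7 and 80.9 CPM there without the immunoglobulin-rich cells. Cd79a was at only 2.36 and 5.17 CPM in the DN1–DN3 libraries. Plasma cell markers gave 3 higher and 2 lower of 7, at 147 to 192 CPM against 374 to 559.7 CPM. Markers of αβ T and double positive cells gave 1 higher and 5 lower of 10, at 687 to 832 CPM against 1548 to 1585 CPM. Myeloid markers gave 1 higher and 4 lower of 10 (182 to 197 CPM against 148 to 163 CPM), dendritic cell markers 1 and 3 of 8, NK and innate lymphoid markers 1 and 6 of 11, stromal markers 1 and 2 of 6, and red cell markers 0 and 1 of 8, the last at no more than 4.65 CPM in sum. With every cell that held at least 2 UMIs of B cell markers removed, 8140 genes were called in place of 8541, of which 4019 were higher and 4121 lower in place of 4515 and 4026. That filter left 6005 and 7029 of the 6795 and 7627 γδ T cells and 5831 and 5019 of the 6990 and 7557 DN1–DN3 cells, while Cd79a UMIs were found in 9 and 5 of the former and 38 and 68 of the latter, so it also removed many cells without that B cell marker. The part of these other cells in single differences was otherwise not tested.

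The same contrast was available in mice labelled WT, which answers how far the difference between γδ T cells and precursors depended on the label. In a test of the difference between genotypes, 3258 of 14911 genes (21.8%) passed, 1317 (8.83%) with a value above 0 and 1941 (13.0%) with one below 0. The value is the signed log2 difference with the KO label minus that with the WT label. A higher or lower contrast below means this sign and not a larger or smaller gap between the sorts. Any count of such contrasts below is to be read against the 8.83% of all genes above 0 and the 13.0% below 0. With the 8 thymic libraries alone 877 were above 0 and 1866 below, and with the replicate block within genotype added to that fit 622 and 1563. Among the genes that passed this test and were also called with the KO label, 947 had an estimate of the opposite sign with the WT label. The WT contrast was not tested on its own, and some of its estimates were close to 0, as for Cdk1 (0.01, and −1.42 with the KO label). The KO and WT cells of one sort shared their droplet runs, and no fit held a term for the run within a sort, so the p-values do not account for it. The count was 1883 without KO γδ T replicate 2, 1895 and 1934 without the first and the second WT γδ T library, and 2146 and 2026 without the first and the second WT DN1–DN3 library.

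**Figure D3:**
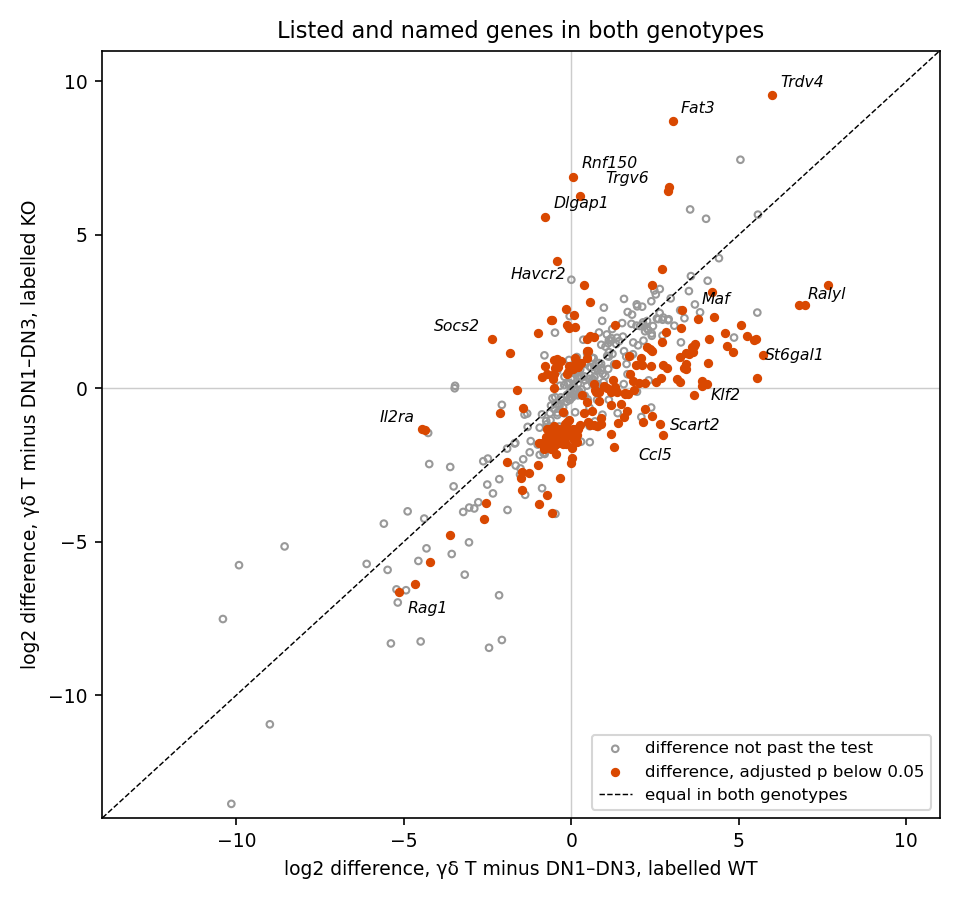
Log2 difference of γδ T over DN1–DN3 with the KO label (vertical axis) against the same with the WT label (horizontal axis) for the listed and named genes, coloured where the difference between genotypes passed the test. The dashed line marks equal differences. Fat3, Rnf150, Dlgap1 and Socs2 lie above it and Scart2, Ccl5, Ralyl and Klf2 below it.

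Receptor and γδT17 genes changed their contrast in both directions. Trgv6 had a log2 difference of 6.42 with the KO label and 2.88 with the WT label, a genotype difference of 3.54 (SE 0.23, adjusted p = 2.81e-05), and Trdv4 one of 3.56 (SE 0.46, adjusted p = 0.000761). Maf had 2.33 and 4.27, a genotype difference of −1.93 (SE 0.37, adjusted p = 0.00592). In the WT libraries Maf was at 339 and 261 CPM against 16.5 and 15.2 CPM, so that the KO DN1–DN3 libraries, at 253 and 121 CPM, lay far above the WT ones. Scart2 was reversed, with −1.15 against 2.64 and a genotype difference of −3.79 (SE 0.28, adjusted p = 5.60e-05). Its WT levels were 341 and 274 CPM against 52.4 and 47.8 CPM, so the KO γδ T libraries held less of it than the WT γδ T libraries. The KO DN1–DN3 libraries, whose levels are given above, held more of it than the WT DN1–DN3 libraries.

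Limited to calls averaging 20 CPM or more over the 4 KO libraries, with no overlap between the KO sorts, the 5 largest genotype differences above 0 were those of Rnf150 (6.84), Dlgap1 (6.38), Rnf17 (5.998), Fat3 (5.68) and Hacd4 (4.58), the gene of an enzyme that lengthens fatty acids. The 5 largest below 0 under the same limits were B630019A10Rik (−4.27), Ccl5 (−4.26), Ralyl (−4.09), St6gal1 (−3.92), which encodes a sialyltransferase, and Scart2. The call of Ralyl was lost with no filter on low counts (adjusted p = 0.0534). Fat3 was at 0.543 and 0.893 CPM against 0.0647 and 0.112 CPM in the WT libraries, and Rnf150 at 1.26 and 1.93 CPM against 2.10 and 1.04 CPM. Both were low in WT cells of either sort, but they were picked by the size of the genotype difference and by their level in the KO libraries. That they were high in KO γδ T cells and low in the other thymic groups followed in part from that choice.

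Il2ra, Socs2 and Cish had a higher contrast with the KO label. Il2ra was at 17.5 and 28.4 CPM against 543 and 424 CPM in the WT libraries, a log2 difference of −4.37 against −1.36 with the KO label, and the genotype difference was 3.01 (SE 0.34, adjusted p = 0.000444). Socs2 turned from −2.37 to 1.60, a genotype difference of 3.97 (SE 0.26, adjusted p = 4.13e-05). The genotype difference of Cish was 2.19 (SE 0.36, adjusted p = 0.0029). Of 11 genes of the SOCS list 5 had a higher and 1 a lower contrast with the KO label.

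Among the egress genes, S1pr1 had a genotype difference of −4.65 (SE 0.55, adjusted p = 0.0006), Klf2 of −3.67 (SE 0.26, adjusted p = 4.34e-05) and Ccr7 of −3.87 (SE 0.28, adjusted p = 4.73e-05). Klf2 was at 255 and 319.8 CPM against 17.5 and 21.4 CPM in the WT libraries. The KO γδ T libraries, at 187 and 129 CPM, lay below the WT γδ T libraries. The KO DN1–DN3 libraries, whose Klf2 levels are given above, lay far above the WT DN1–DN3 libraries, so both sorts entered its genotype difference. Ccr7 was at 16.3 and 10.6 CPM against 5.21 and 4.66 CPM with the KO label. With the WT label it was at 30.5 and 28.9 CPM against 0.663 and 0.706 CPM. Of 24 homing genes 10 had a lower contrast, none a higher one and 14 did not pass the test. Of the cell cycle genes 19 of 25 for S phase and 23 of 25 for G2/M had a lower contrast and none a higher one. A lower contrast was here a larger gap between the sorts for Bub1, at −1.82 with the KO label and −0.25 with the WT label. Mki67 was at 281 and 329 CPM against 335 and 285 CPM in the WT libraries, where the libraries of the 2 sorts overlapped, and its genotype difference was −1.46 (SE 0.30, adjusted p = 0.00859). Without cells that held Mki67 or Top2a UMIs the genotype differences of Uhrf1 and Hells went from −1.42 and −1.16 to −0.29 and −0.47. Those of Bub1b (0.37), Aurkb (0.21), Ccne2 (0.17) and Bub1 (0.0622) turned above 0. None of these genes was called there, while Kif23 was. Genes of receptor signal strength had a lower contrast in 15 of 20 and a higher one in none.

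Shares of cells with a UMI were compared between the sorts after each cell was thinned to 2000 UMIs. Maf was found in 72.3% and 78.5% of the γδ T cells and in 33.9% and 20.1% of the DN1–DN3 cells, and Zbtb16 in 45.02% and 44.0% against 25.3% and 10.04%. The libraries of the 2 sorts did not overlap for either transcript, and DN1–DN3 replicate 1 held the higher share of both. In the WT DN1–DN3 libraries the mean shares were 3.33% for Maf and 1.83% for Zbtb16. Without thinning, Maf was found in 86.9% and 91.6% of the KO γδ T cells and in 51.3% and 36.9% of the KO DN1–DN3 cells.

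Trac, the αβ constant region, was found in fewer γδ T cells, at 8.43% and 7.63% against 23.01% and 11.9%, and Il2rb in more, at 21.7% and 21.6% against 15.6% and 8.19%. Without DN1–DN3 replicate 1 the difference for Trac was −3.92 percentage points, and without replicate 2 it was −14.98, while that for Il2rb was 5.98 without replicate 2. DN1–DN3 replicate 1 thus held the higher share of Maf, Zbtb16, Trac and Il2rb alike. The precursor transcripts had the other order between the DN1–DN3 libraries. Rag1 was found in 25.5% and 36.7% of the DN1–DN3 cells and in 0.174% and 0.252% of the γδ T cells. Ptcra was found in 14.3% and 26.8% of the former and 0.142% and 0.182% of the latter. Without thinning, Rag1 was found in 39.8% and 55.9% of the DN1–DN3 cells and 0.648% and 0.7998% of the γδ T cells, and Trgv6 in 46.3% and 51.5% of the γδ T cells and 1.30% and 1.12% of the DN1–DN3 cells. The lowest p that the exact permutation test can give with 2 libraries against 2 is 0.33, two-sided, and it gave this value for each of the 12 shares compared. The median depth of the 4 libraries differed little, and the part of free RNA in the shares was not tested.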

How the data were processed

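The authors sequenced 10x Genomics 3′ libraries of hashtagged thymocytes and deposited filtered matrices of raw UMI counts per gene and cell, split by hashtag into 1 set per genotype. The submitters' processing notes name Cell Ranger 8.0.1 and GRCm39, and no coordinates are used here. Of 29148 barcodes in the 4 libraries, 28969 with at least 500 UMIs and at most 20% mitochondrial UMIs were kept. Doublets of KO and WT cells had been removed by hashtag before deposit, and no doublet caller was run. UMI counts were summed per library, since cells of 1 library are not replicates, so the rank test over cells was not used. Ribosomal, Gm-number and mitochondrial genes (9548 of 33696 by name) were left out, as the authors did.

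The sums of all 12 libraries were fitted with edgeR 4.0.16 (limma 3.58.1, R 4.3.3; TMM, default low count filter, robust quasi-likelihood F test, two-sided), with Benjamini-Hochberg adjustment over all genes tested and calls at an adjusted p below 0.05. The genotype difference was an interaction contrast of this fit. Shares of cells were thinned to 2000 UMIs per cell (shallower cells left out) and compared by exact permutation. Alternatives were DESeq2 1.42.0, other scaling, filters, sample sets, blocks and left-out cells or libraries. The removal of immunoglobulin-rich cells was added after seeing the data. Cell counts were handled in pandas 2.3.3, numpy 2.4.6 and scipy 1.17.1 and plotted in matplotlib 3.10.9 (Python 3.11.15). The fits were also run on simulated counts with a single fixed spread, and no result given here rests on that run.

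The cells, the gene lists and the tests were chosen with earlier results of these data known. Genes were named by rule: Gfi1, in each list up to 4 called genes per direction with the largest differences and at least 20 CPM in 1 sort, the 10 largest differences per direction over all genes at a mean of at least 20 CPM without overlap between the sorts, and the 5 largest per direction for the genotype difference under the same limits. Maf, Rora, Scart1, Il7r, Notch1, Tcf7, Lef1, Runx3, Mki67, Cdkn1a, Klf2, S1pr1, Ccr7, Trgc1, Tbx21, Id1 and Igkc, with Nr4a1, Top2a, Kit, Cd3e, Socs1, Stat4, Slc2a3, Tmem176b and Serpinb1a in the closing section, were named after their values were seen. Some genes, and a comparison that rests on 1 of them, are not reported here. The sources used here do not tie a replicate number to animals across the sorts, so the block on that number was kept as an alternative.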

Additional observations from a re-analysis of the deposited data

Results flagged for a closer look

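For 104 of the named genes the γδ T over DN1–DN3 difference was not the same with the KO label as with the WT label. This was judged by edgeR's interaction test at an adjusted p below 0.05. Over all genes tested 21.8% passed it, 8.83% with a value above 0 and 13.0% with one below 0. The named genes were picked by size, some by the genotype difference itself and some after their values were seen. Their count is thus not comparable with the share of all genes. The values are log2 differences of the KO contrast minus the WT contrast. The 4 groups have 2 libraries each, and the genotype label rests on the hashtags.

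Among receptor and receptor signalling genes the values were 3.56 for Trdv4, 3.54 for Trgv6, 1.88 for Trgc1, 1.20 for Trdc and 0.59 for Cd3e on the side above 0. On the side below 0 they were −2.52 for Trac, −1.71 for Trgv4, −0.92 for Trbc2, −1.40 for Lck, −1.13 for Themis and −0.99 for Rasgrp1. Precursor transcripts were below 0, at −1.63 for Dntt, −1.52 for Rag1, −1.45 for Notch3, −1.49 for Kit and −1.17 for Erg. Hoxa7 (−1.24), Cdk6 (−0.49) and Adamts17 (−1.71) were below 0 too. Cpa3 of the Notch list had −1.18, but its own log2 difference was above 0 with both labels (KO 0.75, WT 1.93). Mycn (2.81), Il2ra (3.01), Rbpj (1.07) and Notch2 (0.89) were above 0.

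Of the named commitment factors and E protein and Id genes, those that passed the test were below 0 (Id2, at 0.45, did not pass), with −3.50 for Id1, −3.51 for Tox2, −1.88 for Lef1, −0.96 for Tcf7, −2.29 for Cd5, −1.06 for Ets2, −0.90 for Runx3, −0.80 for Patz1, −0.52 for Tcf3, −1.69 for Tcf4, −0.96 for Tcf12, −2.19 for Id3, −1.50 for Myb and −2.40 for Nr4a1. Of the γδT17 list 6 of 37 genes had a higher and 6 a lower contrast with the KO label. Tmem176b had 2.84 and Serpinb1a 2.75, while Maf had −1.93, Sox4 −1.88, Sox13 −1.05 and Scart2 −3.79. Of the type 1 and interleukin 4 type genes, Ccl5 had −4.26, Nkg7 −2.55, Il2rb −2.27, Il12rb2 −1.51, Izumo1r −3.67, Slamf6 −1.89, Sh2d1a −1.75 and Hivep3 −1.23, with Klrk1 (1.20), Ctsd (0.73) and Bhlhe40 (2.77) above 0.

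Egress and homing genes were below 0, at −4.65 for S1pr1, −3.87 for Ccr7, −3.67 for Klf2, −1.42 for Klf3, −1.33 for Itgb7 and −0.76 for Ccr9, as were the cytokine receptor genes Il6st (−1.998) and Tgfbr1 (−0.61). Of the 11 genes of the SOCS list 5 had a higher contrast, among them Socs2 (3.97), Cish (2.19) and Socs1 (1.40), and 1 a lower one, Stat4 (−0.99). The cell cycle genes were below 0, at −1.79 for Kif23, −1.57 for Bub1, −1.51 for Top2a, −1.50 for Aurkb, −1.46 for Mki67, −1.42 for Uhrf1, −1.37 for Bub1b, −1.16 for Hells and −1.06 for Ccne2. The cycle inhibitor genes Cdkn1a and Cdkn2d had 3.13 and −0.54, and Ccng1 had 0.53. Over the alternatives Cdkn1a ranged from 2.79 to 5.21 and was called in each. Of 13 BCL2 family genes 2 had a higher and 2 a lower contrast, the latter Bcl2 (−1.35) and Bcl2l11 (−0.95). These counts were little above the shares of all genes. Bcl2l11 ranged from −1.595 to −0.845 over the alternatives and was called in each.

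Of the 17 identifiers of the glycolysis list 4 had a higher contrast, among them Pfkp (1.12), Aldoa (0.72) and Hk1 (0.51), and 1 a lower one, Slc2a3 (−0.54). Havcr2 had 2.999, Rcor3 1.15, Bst2 0.79, Zbp1 −0.68 and Ifi206 −1.21. Of the markers of other cell types, Fcer1g had −3.18, Cd74 −2.77, Epcam −1.86, Cst3 0.67 and Sdc1 2.05. Of the genes named for their size over all genes, the values were 6.84 for Rnf150, 6.38 for Dlgap1, 5.998 for Rnf17, 5.68 for Fat3, 4.58 for Hacd4 and 3.64 for Tns4, and on the other side −4.27 for B630019A10Rik, −4.09 for Ralyl and −3.92 for St6gal1.

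With 1 library left out in turn, 33 of these 104 genes lost the call at least once: Aurkb, Bcl2, Bst2, Bub1, Bub1b, Ccne2, Ccng1, Ccr9, Cd3e, Cd74, Cdk6, Cdkn2d, Cpa3, Ctsd, Erg, Havcr2, Hells, Hk1, Hoxa7, Ifi206, Itgb7, Klrk1, Notch2, Pfkp, Rag1, Rasgrp1, Runx3, Sdc1, Slc2a3, Sox13, Tcf3, Tgfbr1 and Zbp1. Without cells with Mki67 or Top2a UMIs 17 genes lost it, Aldoa (0.35), Aurkb (0.21), Bub1 (0.0622), Bub1b (0.37), Ccne2 (0.17), Ccng1 (0.30), Cd74 (−2.40), Cdk6 (0.20), Erg (−1.03), Hells (−0.47), Hivep3 (−0.66), Hk1 (0.34), Patz1 (−0.63), Pfkp (0.18), Rag1 (−0.34), Tcf3 (−0.41) and Uhrf1 (−0.29). With the replicate block within genotype, fitted to the 8 thymic libraries, 18 lost it, Ccng1, Cd3e, Cdk6, Ctsd, Erg, Hk1, Hoxa7, Ifi206, Itgb7, Klrk1, Patz1, Pfkp, Rasgrp1, Runx3, Sdc1, Slc2a3, Tcf3 and Zbp1. With the 8 thymic libraries alone and no block 12 lost it, Ccng1, Ccr9, Cd3e, Cdk6, Cdkn2d, Hk1, Ifi206, Itgb7, Klrk1, Pfkp, Runx3 and Tcf3. All of the 12 but Ccr9 and Cdkn2d are among the 18. With no filter on low counts 11 lost it, Aurkb, Cd74, Cdk6, Cpa3, Hk1, Ifi206, Itgb7, Klrk1, Pfkp, Rag1 and Ralyl. Without cells with B cell transcripts Cdk6 (−0.54), Pfkp (0.65), Sox13 (−0.62) and Zbp1 (−0.52) lost it, without very deep cells Cdk6, Hk1 and Pfkp, with all genes kept Hk1 and Rag1, and without immunoglobulin-rich cells Cd74. Without KO DN1–DN3 replicate 1 the values fell in size to −0.73 for Itgb7, −0.67 for Ifi206 and −0.53 for Runx3, and without KO DN1–DN3 replicate 2 to 0.72 for Pfkp, 0.33 for Ccng1 and 0.31 for Hk1.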

How the results depend on the processing

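The 8541 calls of the KO contrast ranged from 5918 with the 4 KO libraries alone to 9596 with all genes kept, and from 6920 to 8649 with 1 library left out. The 3991 calls past 2-fold ranged from 3186 to 4476 with 1 library left out. The 3258 calls of the genotype difference ranged from 1883 to 3943 with 1 library left out. For these counts a left-out library leaves a lone sample that is assumed to vary like the others. Without thinning, the difference in the share of cells with Trdc was 59.8 percentage points in place of 74.8.

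With the replicate number as a block, the counts were 8597, 3998 and 3290 in the order above. The block within each genotype was fitted to the 8 thymic libraries alone and gave 7807, 3926 and 2185. Of its genotype differences 622 were above 0 and 1563 below. Those 8 libraries without a block gave 8219, 3970 and 2743. Deviations from the group means of same-numbered γδ T and DN1–DN3 libraries correlated by 0.0369 with the KO label and 0.223 with the WT label. Those of KO and WT libraries of one droplet run correlated by 0.0557 (γδ T) and 0.283 (DN1–DN3). Since libraries that shared a run could also give a value near 0, these correlations cannot decide whether the numbers pair the sorts. The main fit held no such block.

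Of 175 named genes called in the KO contrast, 147 were called in each alternative and 28 lost the call in at least 1. Of 104 called in the genotype difference, 66 and 38 did so. Klf2, not called, turned from 0.23 to −0.18 without cells with B cell transcripts, −0.0916 without cells with Mki67 or Top2a, and ranged from −0.0159 without γδ T replicate 1 to 0.44 without γδ T replicate 2. Stat4, not called at 0.26, turned to −0.0895 and −0.15 in the first 2 of these. Genotype differences without the cells with Mki67 or Top2a turned above 0 for Cdk6 (0.20), Ccne2 (0.17), Bub1b (0.37), Bub1 (0.0622) and Aurkb (0.21), none called there, and the cause was not tested. In the KO contrast, the removal of cells with B cell transcripts moved Ccr9 from 2.55 to 1.69, Scart2 from −1.15 to −1.95, Sox4 from −1.21 to −1.93, Trgv4 from −0.54 to −0.96 and Nkg7 from −1.14 to −1.87, each still called, and ended the call of Slpi (−2.66). The removal of cells with Mki67 or Top2a UMIs moved Bcl11a from −5.40 to −8.13 and ended the call of Igha (−13.7), which was also lost without γδ T replicate 2 (−10.01). The smallest library held 42352748 UMIs, which limits what can be said of transcripts near 0.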
